A study of Mus musculus with 4 samples.

Results

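DNA methylation was described along the bodies of very long genes in cultured mouse germline stem (GS) cells. The genes were all annotated protein-coding genes of mm10 chromosomes 1 to 19 that span 200 kb or more, and 2 kb was left out at each end. There were 945 such genes among 20665 protein-coding genes on these chromosomes, and 944 held enough CpGs to be measured. The exception, Gm4724 on chromosome 2, had too few. The length limit fell between Plcxd3 at 200095 bp, just inside, and Atp9b at 199941 bp, just outside. The median span was 326445 bp, 216 genes reached 500 kb, 55 reached 1 Mb, and 22 overlapped another member, so the members formed 930 separate loci that covered 399.7 Mb.

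GS cells are the cultured form of the stem cells that maintain sperm production. Here they came from the testis of wild-type Green mice, which carry the EGFP transgene of C57BL/6 Tg14(act-EGFP)OsbY01 animals, on a DBA/2 background. The 60M-GS cells had grown for about 60 months and the 5M-GS cells for about 5 months, both with FGF2, GDNF and fetal bovine serum at 1%. Each age had 2 replicates, whose calls were pooled into 1 deposited table per age; nothing states that the replicates were separate cultures. Every test below therefore compares 2 tables with no replicate check, and every interval covers counting error only.

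In mammals most CpGs inside gene bodies are methylated, while CpG-dense promoters are usually not, including alternative promoters that lie deep inside long genes. Partly methylated domains are long stretches in which methylation is incomplete, and in many cultured cells they hold genes that are not in use. Very long genes are a distinctive class in which synaptic, cell adhesion and ion channel genes are common, and several of them coincide with the common fragile sites of the genome.

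The promoters of 4 germ cell genes, which are methylated in somatic cells, were read as a check of the cell type. The 250 bases upstream of the start of Mael were at 0.5% in 60M-GS, against 8.33% in 5M-GS, those of Sycp3 at 2.00% in 60M-GS, against 4.79% in 5M-GS, those of Ddx4 at 0.321% in 60M-GS, against 3.39% in 5M-GS, and those of Dazl at 2.73% in 60M-GS, against 1.79% in 5M-GS. All of them were at low levels in both tables. The 944 measured bodies held 2672226 CpGs, at a median of 22.8 calls per CpG in 60M-GS cells and 22.2 in 5M-GS cells. Calls per CpG in 60M-GS over 5M-GS, set to 1 at the median window, were 0.814 on chromosome 15 and 0.882 on chromosome 16, and 0.989 to 1.008 on the other autosomes, so values on chromosomes 15 and 16 rest on relatively fewer 60M-GS calls. No window of a long gene had a ratio below 0.6 or above 1.6. In a few members much of the body was not usable, above all Skint6, with 76 of 750 listed CpGs, and Skint5, with 232 of 1062.

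Long genes hold further start sites inside their bodies, some far from the 5′ end, and the sequences at 6 of these are printed first because they carried some of the sharpest local differences as well as the usual unmethylated state. Each run is the 250 bases upstream of a RefSeq start (GRCm38.p6, the mm10 build), written 5′ to 3′ on the strand of the gene, with every CpG in capitals. The first 4 were higher in 60M-GS, Crb1 was lower, and the last, a CpG-rich start of Celf2, was unmethylated at both ages.
Celf2, chr2:6721663-6721912, minus strand: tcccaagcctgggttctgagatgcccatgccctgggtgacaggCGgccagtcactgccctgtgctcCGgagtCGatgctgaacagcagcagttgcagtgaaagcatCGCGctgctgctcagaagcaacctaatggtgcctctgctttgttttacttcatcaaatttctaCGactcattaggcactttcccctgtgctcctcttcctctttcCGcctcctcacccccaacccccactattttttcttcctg
Ctnna3, chr10:63457261-63457510, plus strand: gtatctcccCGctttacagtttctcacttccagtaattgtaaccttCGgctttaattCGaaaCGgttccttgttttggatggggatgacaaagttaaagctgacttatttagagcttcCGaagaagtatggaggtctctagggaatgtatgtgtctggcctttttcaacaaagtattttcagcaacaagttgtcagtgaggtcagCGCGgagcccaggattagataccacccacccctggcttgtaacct
Lingo2, chr4:35845205-35845454, minus strand: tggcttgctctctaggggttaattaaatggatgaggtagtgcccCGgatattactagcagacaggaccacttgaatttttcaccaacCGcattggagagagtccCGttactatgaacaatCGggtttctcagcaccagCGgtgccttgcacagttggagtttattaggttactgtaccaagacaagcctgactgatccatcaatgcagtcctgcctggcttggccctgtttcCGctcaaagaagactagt
Mgat4c, chr10:102158608-102158857, plus strand: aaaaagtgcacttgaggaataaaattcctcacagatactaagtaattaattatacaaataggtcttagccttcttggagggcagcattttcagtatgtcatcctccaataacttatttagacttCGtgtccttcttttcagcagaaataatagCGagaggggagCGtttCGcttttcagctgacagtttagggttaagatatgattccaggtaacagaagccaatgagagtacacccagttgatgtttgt
Crb1, chr1:139377077-139377326, minus strand: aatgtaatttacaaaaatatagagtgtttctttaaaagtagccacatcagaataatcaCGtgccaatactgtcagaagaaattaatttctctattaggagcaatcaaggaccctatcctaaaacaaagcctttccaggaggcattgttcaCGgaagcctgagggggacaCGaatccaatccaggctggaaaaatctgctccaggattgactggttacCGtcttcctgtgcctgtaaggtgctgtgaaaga
Celf2, chr2:6872036-6872285, minus strand: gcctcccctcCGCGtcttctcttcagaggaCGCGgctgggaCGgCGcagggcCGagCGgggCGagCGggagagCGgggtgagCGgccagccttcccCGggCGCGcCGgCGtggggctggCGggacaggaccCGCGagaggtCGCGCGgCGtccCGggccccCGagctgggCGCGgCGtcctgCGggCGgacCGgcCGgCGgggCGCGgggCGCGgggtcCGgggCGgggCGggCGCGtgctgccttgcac
The 5 printed promoters that differed held 4 to 7 CpGs each, and the printed unmethylated start of Celf2 held 43. The 6 sequences were chosen examples, so these counts do not compare changed with unmethylated starts in general. Starts inside Baz2b and Tenm4 with 4 and 8 usable CpGs had 0% methylated calls at both ages. One inside Zfp385b with 11 usable CpGs was lower in 60M-GS.

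The first question was how methylated these bodies were and whether the longer culture changed them. Long-gene bodies were highly methylated at both ages and differed little between them. The median over the 944 genes was 83.7% in 60M-GS, against 83.4% in 5M-GS. The interquartile range was 80.6% to 86.2% in 60M-GS and 80.2% to 86.3% in 5M-GS. The difference, 60M-GS minus 5M-GS, had a median of -0.08 points. It was within 1 point in 635 genes and within 3 points in 894, above 0 in 439 and below 0 in 505. A two-sided Fisher's exact test, adjusted by Benjamini-Hochberg over all 15008 measurable protein-coding bodies, gave an adjusted p under 0.05 for 585 long genes, since the large number of calls per gene makes small differences detectable. A body was therefore called changed only with a difference of at least 10 points as well.

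By that rule 11 long genes (1.17%) were higher in 60M-GS and 0 were lower, against backgrounds over all protein-coding bodies of 4.09% higher and 0.22% lower. Of the 11, 10 were overlapping annotations of 1 block on chromosome 18, the clustered protocadherins, so only 2 separate loci were called. The order of the genes was largely kept between ages: the Spearman correlation of 60M-GS with 5M-GS level was 0.948 across the 944 genes, a description of genes measured in the same tables. Genes that were low in 5M-GS had the larger gains, with a Pearson correlation of -0.70 between 5M-GS level and difference, and of -0.38 without the 10 annotations of the block. The 5M-GS level enters both measures. Among the 22 genes under 70% in 5M-GS the median was 61.7% in 60M-GS cells and 44.9% in 5M-GS cells, and 21 of them were above 0 in the difference. These 22 include the 10 annotations of the block; the other 12 had a median of 68.8% in 60M-GS, against 65.5% in 5M-GS, and 11 of them were above 0. Among the 13 genes at 90% or more in 5M-GS, 0 were above 0, with medians of 89.8% in 60M-GS, against 90.4% in 5M-GS.

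**Figure D1:**
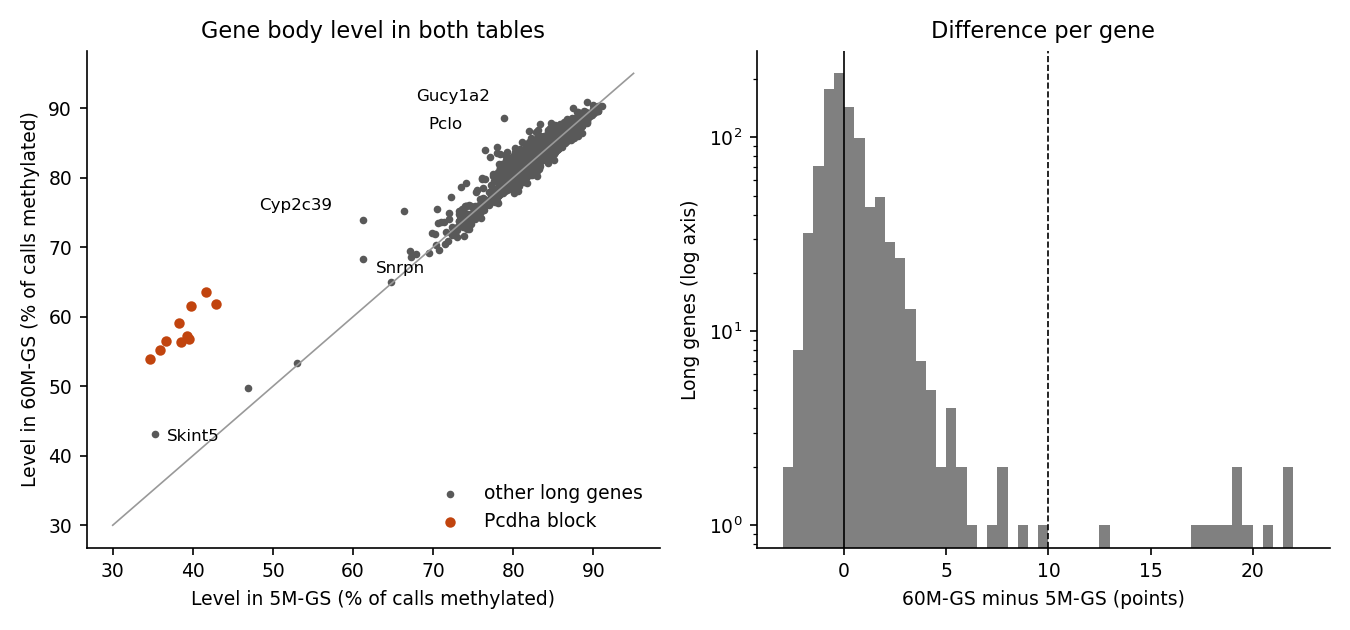
Left, the methylation level of each of 944 long-gene bodies in 60M-GS (vertical axis) and 5M-GS (horizontal axis), in percent of calls, with the line of equality and the 10 annotations of the protocadherin block in orange. Right, the number of genes (log axis) by difference in points, with 0 (solid line) and the 10-point limit (dashed line); nearly all genes lie within 3 points of 0, and 11 lie beyond the limit, all on the positive side.

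Long-gene bodies varied less among themselves than shorter ones, and their median level was slightly lower. Bodies of other protein-coding genes had a median of 85.6% in 60M-GS cells and 85.4% in 5M-GS cells, but their standard deviation over genes was 14.3 points in 60M-GS, against 15.5 points in 5M-GS, while that of long genes was 5.35 points in 60M-GS cells and 6.79 points in 5M-GS cells. The median 5M-GS level was 86.6% for genes under 20 kb, 85.3% at 20 to 50 kb, 84.3% at 50 to 100 kb, 83.9% at 100 to 200 kb, 83.4% at 200 to 500 kb and 83.5% at 500 kb and over. The share of bodies higher in 60M-GS was 7.04% in genes under 20 kb, 3.40% at 20 to 50 kb, 1.34% at 50 to 100 kb, 1.32% at 100 to 200 kb, 1.10% at 200 to 500 kb and 1.39% at 500 kb and over. Bodies of different lengths also differ in their number of CpGs, with a median of 82 under 20 kb, against 2391 in long genes, and the part of this in the spread and in these shares was not tested.

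**Figure D2:**
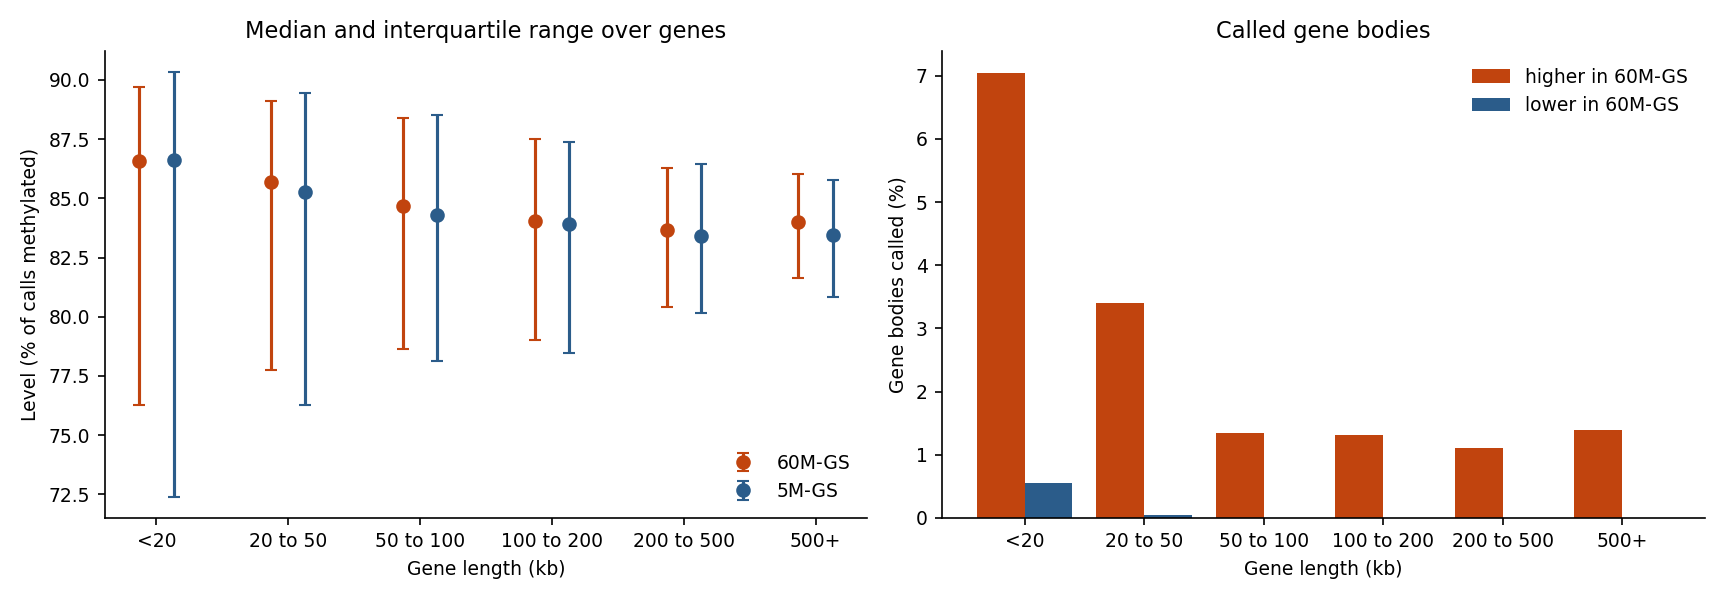
Left, the median and interquartile range of gene body level (percent of calls methylated) by gene length in kb, 60M-GS in orange and 5M-GS in blue. Right, the percent of bodies called higher (orange) or lower (blue) in 60M-GS; the share called higher is 7.04% under 20 kb and 1.10% to 1.39% in the classes from 50 kb upward.

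Long genes were also compared by their usable CpGs per kb, which depend on coverage as well as on sequence. Members with few usable CpGs, such as Skint5 and Skint6, therefore rank low. In the 236 long genes with the fewest usable CpGs per kb, the median was 84.6% in 60M-GS, against 83.3% in 5M-GS, and 162 genes were above 0 in the difference. In the 236 with the most, the median was 82.8% in 60M-GS cells and 83.0% in 5M-GS cells, and 83 were above 0. In the 5M-GS table alone, level and usable CpGs per kb were almost unrelated, with a Spearman correlation of -0.02 across the genes.

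The clustered protocadherins are neuronal adhesion molecules, of which the alpha and gamma groups are made from arrays of alternative first exons, each with its own CpG-rich promoter. They held the lowest level in 5M-GS and the largest changes among the long genes; in 60M-GS the lowest body was that of Skint5, described further on. Pcdha1, whose annotation spans most of the alpha array, stood at 54.0% in 60M-GS, against 34.6% in 5M-GS, and Pcdha6 at 63.5% in 60M-GS, against 41.6% in 5M-GS, which gives a difference of 21.9 points (21.2 to 22.5), the largest of all long genes. The 7 Pcdha genes and the 3 predicted genes that run on through the beta and gamma arrays differed by 17.4 to 21.9 points. These genes share most of their CpGs and count as 1 locus. Without CpGs in CpG-dense surroundings, defined as 10 or more CpGs within 250 bp, the differences of these 10 genes were 6.60 to 7.42 points, below the limit. The block also held the longest run of low windows, 300 kb long, at 69.3% in 60M-GS cells and 41.1% in 5M-GS cells.

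Outside this block the other called body was Cyp2c39, a member of the Cyp2c family of cytochrome P450 enzymes. It stood at 73.9% in 60M-GS, against 61.3% in 5M-GS, or 12.6 points more in 60M-GS (interval 11.4 to 13.8; adjusted p = 2.86e-95, Fisher's exact test). The Cyp2c genes are close copies in a tandem array, so reads may have been split between them. Gucy1a2, a subunit of the nitric oxide receptor guanylate cyclase, came next at 88.6% in 60M-GS cells and 78.8% in 5M-GS cells, which left its difference of 9.73 points under the limit; with 20 kb left out at each end it was 10.3 points and was called. Its difference was spread over the body: 7 of its 18 windows of 20 kb were called higher and the smallest difference of any window was -0.21 points.

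The gains of the named bodies that followed stayed under 10 points. Pclo, the presynaptic scaffold Piccolo, was at 84.0% in 60M-GS, against 76.4% in 5M-GS, with 4 of 17 windows called higher and window differences between -2.06 and 22.3 points. Grik2, a kainate receptor subunit, was at 83.6% in 60M-GS cells and 77.9% in 5M-GS cells, with 7 of 34 windows called. Snrpn, an imprinted splicing-protein gene expressed from the paternal copy, was at 68.3% in 60M-GS, against 61.3% in 5M-GS. Its locus holds repeated small RNA genes, and 829 of 1519 listed CpGs were usable. Sntg1, a syntrophin that links membrane proteins to the cytoskeleton, was at 78.6% in 60M-GS cells and 73.4% in 5M-GS cells. Rp1, a microtubule protein of photoreceptors, was at 79.2% in 60M-GS, against 74.1% in 5M-GS. Itgbl1, an integrin-like extracellular protein, was at 83.0% in 60M-GS cells and 77.1% in 5M-GS cells, and the matrix protein gene Abi3bp, on chromosome 16, at 83.4% in 60M-GS, against 78.4% in 5M-GS. Skint5, of a mouse family of immunoglobulin-like genes with close copies, was at 43.1% in 60M-GS, against 35.2% in 5M-GS over its 232 usable CpGs. The list outside the block was drawn up after the values had been seen.

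Losses over whole bodies were small. The largest was in Pebp4, a phosphatidylethanolamine-binding protein gene, at 80.2% in 60M-GS cells and 82.9% in 5M-GS cells, where the difference was -2.76 points (interval -3.16 to -2.36). Rbfox3, which encodes the neuronal splicing factor NeuN, was at 78.0% in 60M-GS, against 80.6% in 5M-GS. Farp1, an exchange factor gene, was at 82.6% in 60M-GS cells and 85.05% in 5M-GS cells, and Ripor2 at 77.7% in 60M-GS, against 80.1% in 5M-GS. The others of the 10 largest losses were the dynein gene Dnah11, the vesicle motor gene Myo5b, the synaptic adhesion gene Igsf21, the ubiquitin ligase gene Sh3rf3, the exchange factor gene Trio and the potassium channel gene Kcnh1, with differences of -2.36 to -2.0 points.

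The 5 longest genes changed little over their bodies. Ptprd, a receptor phosphatase of synapses and the longest at 2270506 bp, was at 81.8% in 60M-GS, against 81.1% in 5M-GS. Cntnap2, an axonal adhesion protein, was at 86.1% in 60M-GS cells and 85.4% in 5M-GS cells, and Lsamp, an adhesion protein on chromosome 16, at 84.5% in 60M-GS, against 84.0% in 5M-GS. Lrp1b, a lipoprotein receptor family member and a fragile site gene, was at 85.2% in 60M-GS, against 82.7% in 5M-GS, the largest difference of the 5 at 2.45 points. Macrod2, an ADP-ribosyl hydrolase gene at another fragile site, was at 76.8% in both tables.

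By function, 0 genes of any list were called. Outside the protocadherin block 1 of 934 long genes (0.107%) was called, so these counts show nothing particular to the lists. The lists share some genes and were drawn up with earlier results known. The 35 widely used genes of basic cell function were the most methylated, with a median of 86.8% in 60M-GS cells and 87.3% in 5M-GS cells, and 28 of them were below 0 in the difference. Their largest differences were -1.33 points in the ubiquitin-conjugating enzyme gene Ube2e2 and -0.98 in Thada. The 50 neural adhesion and guidance genes had a median of 84.1% in 60M-GS, against 83.5% in 5M-GS, and 33 were above 0. Their largest differences were in Pcdh9, a protocadherin outside the clusters, at 83.7% in 60M-GS cells and 79.2% in 5M-GS cells, and in the immunoglobulin-type adhesion gene Cntn1, on chromosome 15, at 82.0% in 60M-GS, against 78.2% in 5M-GS. The guidance receptor gene Robo1, on chromosome 16, was at 82.6% in 60M-GS, against 79.1% in 5M-GS, and the teneurin gene Tenm3 at 84.2% in 60M-GS, against 80.8% in 5M-GS. For comparison, the median difference over all long genes was -0.08 points, that of the widely used list -0.34 and that of the adhesion list 0.48. The lists also differ in level. Among all 324 long genes at 85% to 90% in 5M-GS, where the median of the widely used list lies, the median difference was -0.32 points. Of these 324, 225 were below 0 and 99 above, so small losses were not particular to the widely used list. Among the 387 at 80% to 85%, where the median of the adhesion list lies, it was 0.01 points.

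The 40 channel and neurotransmitter receptor genes had a median of 84.2% in 60M-GS cells and 83.9% in 5M-GS cells, with Grik2, the potassium channel gene Kcnb2 and the metabotropic glutamate receptor genes Grm5 and Grm8 showing the largest differences, 5.66, 2.93, 2.54 and 2.34 points. The 22 fragile site genes had a median of 84.6% in 60M-GS, against 84.0% in 5M-GS, and the largest difference was in Naaladl2, a peptidase-like gene, at 86.8% in 60M-GS cells and 83.1% in 5M-GS cells. Transcription regulators were the lowest list, with a median of 82.8% in 60M-GS, against 82.4% in 5M-GS over 35 genes. The zinc finger gene Zfp536 was at 75.9% in 60M-GS cells and 74.1% in 5M-GS cells, and the blood regulator Runx1, on chromosome 16, at 74.2% in 60M-GS, against 75.9% in 5M-GS. The 32 signalling genes had a median of 83.2% at both ages, with the largest difference, 3.28 points, in Fgf14, an intracellular FGF-like channel regulator, followed by the cell-surface proteoglycans Gpc5 at 1.93 and Gpc6 at 1.91.

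Windows of 20 kb were used to find where within a gene methylation was incomplete. Long genes had few such windows: 1131 of 18736 windows (6.04%) were under 70% in 60M-GS and 1371 (7.32%) in 5M-GS, against a background over the autosomes of 22.6% in 5M-GS. In the windows outside long genes the shares were 19.9% in 60M-GS, against 25.5% in 5M-GS. The sets are unlike: long-gene windows lay wholly within the trimmed spans, while the others also held gene ends and sequence between genes. Windows inside shorter genes were not compared, so these shares do not isolate gene length. Between the ages, 419 long-gene windows left the class under 70%, 179 entered it and 952 stayed in it. The class was defined on the 5M-GS level, so the balance of leaving and entering is a description.

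At least 1 window under 70% in 5M-GS was found in 541 of 942 genes (57.4%), of which 225 had exactly 1, 74 had 5 or more and 14 had 10 or more. Of genes of 500 kb and over, 171 of 216 had at least 1, against 370 of 726 at 200 to 500 kb. Longer genes hold more windows, so these counts do not show a higher share of low windows. Counted per gene, 721 of 8831 windows were low in genes of 500 kb and over, and 764 of 10101 at 200 to 500 kb. The 401 genes without any had a median body level of 86.2% in 60M-GS cells and 86.3% in 5M-GS cells. Most runs were short: 970 of 1134 stretches were a single window, 128 were 2 windows long and 36 were 3 or longer. Without CpGs in CpG-dense surroundings, 547 of the 1371 low windows were under 70% in 5M-GS, and 254 genes held at least 1 of these. In the other 824 the CpGs outside such surroundings had a median of 77.4% in 5M-GS. The share of windows under 70% in 5M-GS was 9.35% in the signalling list, 9.24% in the transcription regulators, 6.80% in the channels and receptors, 5.83% in the adhesion genes, 5.72% in the fragile site genes and 1.98% in the widely used genes, against 7.32% in all long genes.

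Apart from the protocadherin block, the genes with the most low windows were Sgcz, Pde4d, Nrg1, Erbb4, Dlgap1, Galntl6 and Snrpn. Sgcz, a sarcoglycan of the muscle membrane complex, had 14 of 56 windows under 70% in 60M-GS, against 20 in 5M-GS, including a run of 160 kb at 66.2% in 60M-GS cells and 59.3% in 5M-GS cells. Pde4d, a cAMP phosphodiesterase, had 11 of 64 in 60M-GS, against 15 in 5M-GS. Nrg1, a growth factor of the EGF family, had 13 of 53 in 60M-GS cells and 14 in 5M-GS cells, and the gene of its receptor Erbb4 had 8 of 53 in 60M-GS, against 14 in 5M-GS. Dlgap1, a postsynaptic scaffold, had 9 of 41 in 60M-GS cells and 13 in 5M-GS cells, and Galntl6, a glycosyltransferase-like gene, had 8 of 56 in 60M-GS, against 13 in 5M-GS. Snrpn had 7 of 15 in 60M-GS cells and 11 in 5M-GS cells.

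**Figure D3:**
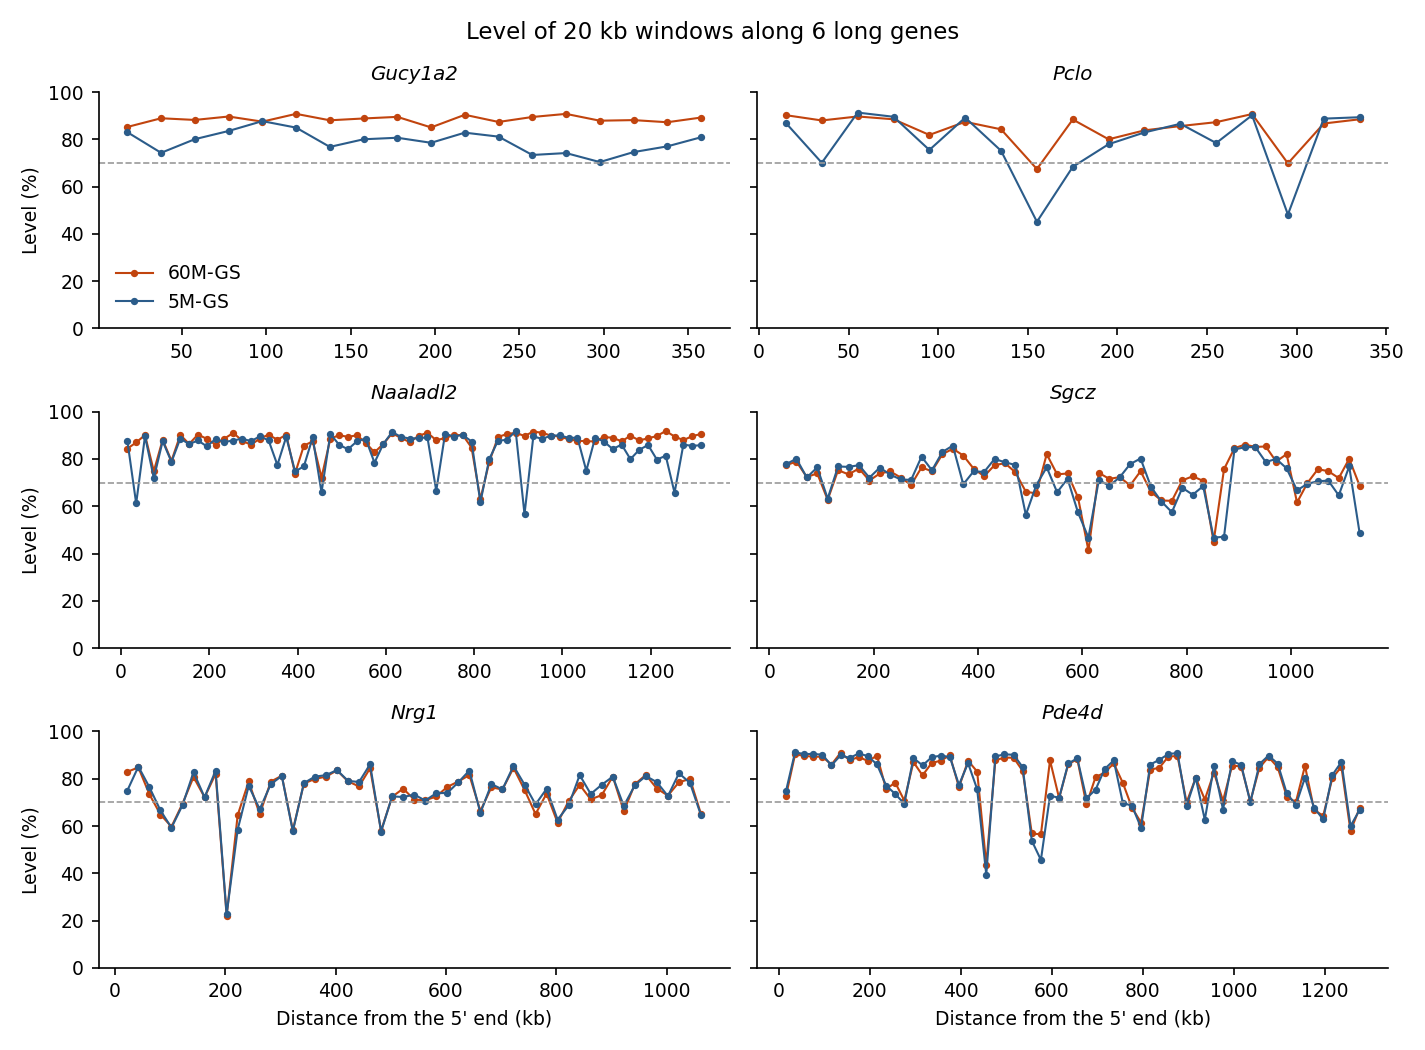
Level of 20 kb windows (percent of calls methylated, vertical axis) by distance in kb from the 5′ end along 6 long genes, 60M-GS in orange and 5M-GS in blue, with a dashed line at 70%. The 5′ end is that of RefSeq for Gucy1a2, Pclo and Pde4d and the CpG-denser end for the others; Gucy1a2 is higher in 60M-GS over most of its body, Pclo and Naaladl2 at separate dips that are shallower in 60M-GS, and the dips of Nrg1 and Pde4d mostly coincide between the ages.

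The low windows were split into 2 classes by the make-up of their CpGs, a cut that places every window on 1 side. In 1012 of the 1371 low windows (73.8%), CpGs under 20% in 5M-GS equalled or outnumbered intermediate CpGs at 20% to 80%. In the other 359 windows intermediate CpGs were more numerous. Outside long genes the make-up was much the same, with low CpGs equal or more numerous in 72.4% of 25260 low windows. This split was made after the values had been seen. Windows with mostly intermediate CpGs had a median of 71.8% in 60M-GS, against 66.2% in 5M-GS, with a median difference of 6.33 points. Windows with at least as many low CpGs, those under 20%, had a median of 64.8% in 60M-GS cells and 63.0% in 5M-GS cells. Their median difference was 1.04 points, and their median shares in 5M-GS were 14.4% intermediate and 27.6% low CpGs. The more numerous kind was thus a minority of the CpGs in most windows of either class. Outside long genes the corresponding median differences were 13.7 and 0.907 points, so the contrast was not particular to long genes. The 48 windows with 40% or more intermediate CpGs in 5M-GS had a median of 77.9% in 60M-GS, against 60.6% in 5M-GS. The 197 windows with 40% or more CpGs under 20% had a median of 46.6% in 60M-GS cells and 45.2% in 5M-GS cells. The same 5M-GS values chose and measured all of these windows.

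Because the 5M-GS level had chosen and sorted these windows, CpGs of odd rank were also used to choose and sort, and CpGs of even rank to measure. The median difference was then 5.91 points in 350 windows with more intermediate than low CpGs, of which 36.6% were 10 points or more higher in 60M-GS. It was 1.05 points in the 1041 windows with at least as many low CpGs, of which 11.05% were. CpGs of both ranks come from the same libraries.

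**Figure D4:**
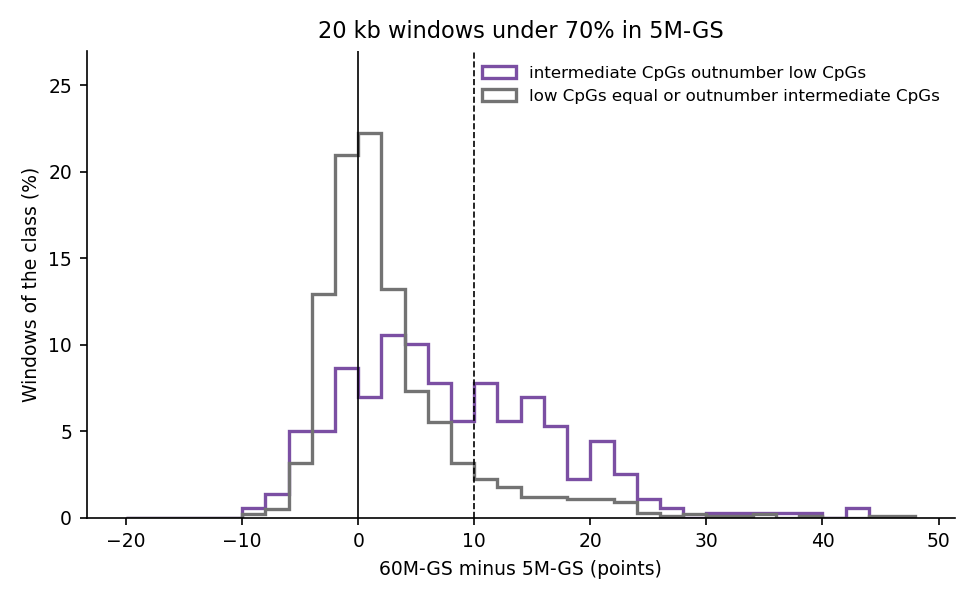
Difference in level of the 1371 long-gene windows under 70% in 5M-GS, in points (horizontal axis), as the percent of windows in each class (vertical axis, bins of 2 points). Windows in which intermediate CpGs outnumber CpGs under 20% (purple, 359 windows, median 6.33) lie beyond the dashed line at 10 points more often than the others (grey, 1012 windows, median 1.04). The shares called higher in 60M-GS were 38.4% and 10.8%, and outside long genes 60.9% and 6.77%. The 5M-GS values that chose and sorted the windows also enter these calls and favour higher ones, so the shares are a description.

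Stretches of both kinds of make-up can be named. In Cyp2c39 a run of 140 kb had 47.3% intermediate CpGs in 5M-GS and stood at 74.5% in 60M-GS, against 60.4% in 5M-GS. In Snrpn a run of 100 kb had 58.3% intermediate CpGs and stood at 66.3% in 60M-GS cells and 49.3% in 5M-GS cells. Runs of 60 kb in Runx2 and Zfhx3, genes of developmental transcription factors, were rich in CpGs under 20%, and none of their windows was called. The bone regulator Runx2 was at 44.0% in 60M-GS, against 39.5% in 5M-GS, with 56.9% of CpGs under 20%, and Zfhx3, a zinc finger homeobox gene, at 42.7% in 60M-GS, against 44.6% in 5M-GS, with 51.0%. Other runs rich in low CpGs did change: one of 100 kb in the Pcdha array, with 64.5% of CpGs under 20%, was at 51.7% in 60M-GS cells and 23.9% in 5M-GS cells, and all 5 of its windows were called higher. In Nrg1 the lowest window was at 22.0% in 60M-GS cells and 22.6% in 5M-GS cells. These stretches, and the windows named next, were picked after their values had been seen.

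Window by window, the Fisher's exact test over 117977 autosomal windows called 502 long-gene windows (2.68%) higher in 60M-GS and 14 lower, at adjusted p under 0.05 and 10 points or more, against backgrounds of 8.27% higher and 0.0763% lower. Outside long genes, where windows also held gene ends and sequence between genes, 9.32% of windows were called higher. When the calls of a window were divided so that each CpG counted once, 89 windows were higher and 2 lower. The 502 lay in 264 genes by first name, 25 of them in the protocadherin block, and 247 were under 70% in 5M-GS. Another annotated gene lay in 103 of the 502 and in 3 of the 14.

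The widest window gain was in the protocadherin block, at 65.2% in 60M-GS, against 17.9% in 5M-GS. Called windows ended at different levels in 60M-GS: one in Sgcz was at 75.7% in 60M-GS cells and 47.1% in 5M-GS cells. A window of Ptprr, a receptor phosphatase gene, which also holds Taf7l2, was at 89.3% in 60M-GS, against 50.6% in 5M-GS. One in Naaladl2 was at 89.7% in 60M-GS cells and 56.6% in 5M-GS cells, one in Lrp1b at 83.4% in 60M-GS, against 52.9% in 5M-GS, and one in Magi2, a synaptic scaffold, at 89.8% in 60M-GS, against 59.5% in 5M-GS. In the window of Naaladl2 the CpG-sparse CpGs alone were at 88.7% in 60M-GS, against 61.3% in 5M-GS, whereas in that of Ptprr they were at 86.0% in 60M-GS, against 83.0% in 5M-GS, so there the difference lay in CpG-dense sequence. Windows in the synaptic adhesion genes Cadm2, on chromosome 16, and Negr1 stood at 89.7% and 87.6% in 60M-GS, against 63.8% and 62.4% in 5M-GS.

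The 14 lower windows were each in a different gene. The largest loss was in Atrnl1, an attractin-like gene, at 53.9% in 60M-GS cells and 73.1% in 5M-GS cells. One in Cnbd1, a cyclic nucleotide-binding domain gene, was at 64.6% in 60M-GS, against 81.1% in 5M-GS. One in Trio, on chromosome 15, was at 71.9% in 60M-GS cells and 87.8% in 5M-GS cells, and its CpG-sparse CpGs alone at 83.3% in 60M-GS, against 90.8% in 5M-GS. Windows in Sh3rf3, Rbfox3 and Myo5b, which were among the largest body losses, differed by -13.5, -11.2 and -10.2 points.

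Along the span, the change of level was read in 10 equal bins from the 5′ end for the 696 genes with a RefSeq strand and enough CpGs in each bin. None of these genes lies on chromosome 18. The first bin was the least methylated, with a median of 82.3% in 60M-GS, against 81.9% in 5M-GS, and the last stood at 86.0% in 60M-GS, against 85.3% in 5M-GS. From the third bin on, medians were 85.3% to 86.3% at both ages, so the rise of the medians lay in the first part of the gene. The median difference of last minus first bin within a gene was 2.60 points in 60M-GS cells and 2.42 in 5M-GS cells. A rise of 10 points or more was seen in 160 genes in each table and a fall of that size in 50. With CpG-sparse CpGs only, the median was 1.35 points in 60M-GS, against 1.42 in 5M-GS, and a rise of 10 points or more was seen in 70 genes and a fall in 19 in 5M-GS.

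**Figure D5:**
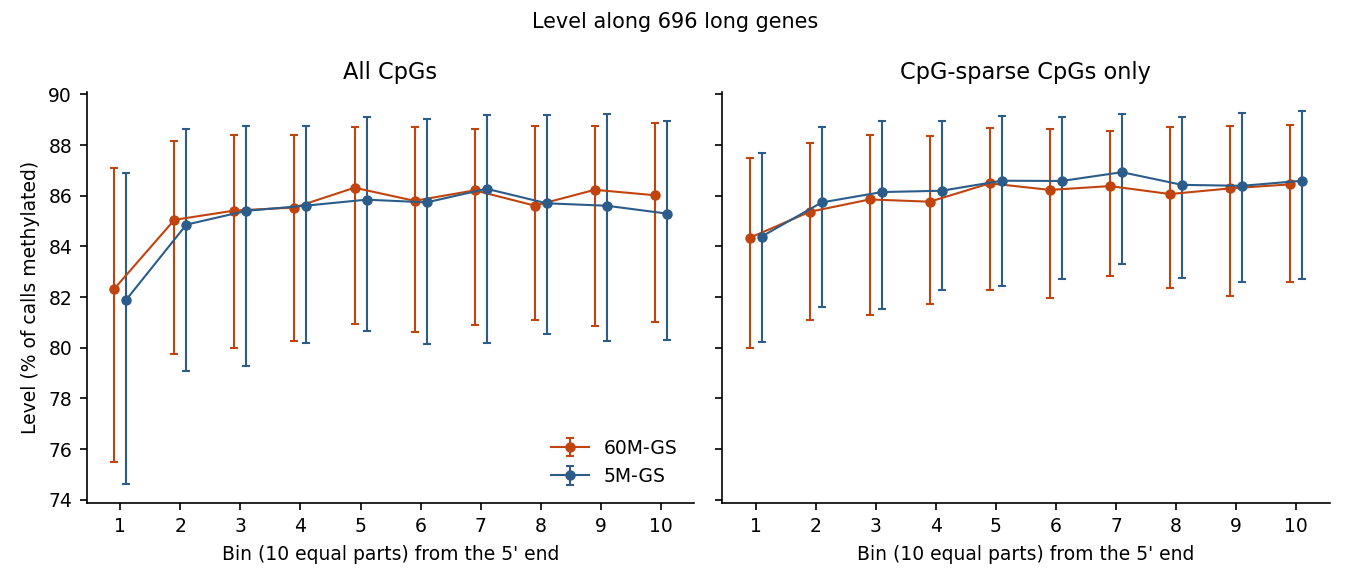
Median level (percent of calls methylated) with interquartile range in 10 equal bins of the body from the 5′ end over 696 long genes, for all CpGs (left) and for CpG-sparse CpGs (right), 60M-GS in orange and 5M-GS in blue. The first bin is lowest in both tables, at 82.3% in 60M-GS cells and 81.9% in 5M-GS cells with all CpGs, and with all CpGs the other bins lie at 84.9% to 86.3%.

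The steepest rises along the body were in Ccdc85a, Rfx3, Tmeff2, Nxph1 and Nr3c2, all with a low first bin in 5M-GS. In Ccdc85a, a coiled-coil protein gene, the first bin was at 36.2% in 60M-GS, against 27.1% in 5M-GS, and the last at 85.3% in 60M-GS, against 86.9% in 5M-GS. In Rfx3, a regulator of cilia genes, the first bin was at 34.1% in 60M-GS cells and 32.2% in 5M-GS cells, in Tmeff2, a transmembrane protein gene, at 34.8% in 60M-GS, against 33.4% in 5M-GS, and in Nxph1, which encodes a neurexin ligand, at 33.7% in 60M-GS, against 32.3% in 5M-GS. In the mineralocorticoid receptor gene Nr3c2 it was at 53.5% in 60M-GS, against 41.6% in 5M-GS. All 5 ended at 85.3% or more in both tables.

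The steepest falls with a known strand were in Cracd, a regulator of actin capping, in the lipid transfer gene Vps13d and in Otud7a, a deubiquitinase. The last bin of Cracd was at 44.6% in 60M-GS cells and 35.3% in 5M-GS cells, that of Vps13d at 39.8% in 60M-GS, against 38.5% in 5M-GS, and that of Otud7a at 39.6% in 60M-GS, against 36.5% in 5M-GS. Nedd4l, a ubiquitin ligase gene, was ranked beside them from the CpG-denser end only, and that end matched the RefSeq strand in 639 of 695 genes (91.9%) where both were known. Its low bin may therefore be the first. Low windows followed the same order by position: with the body cut into 5 equal parts, 9.44% of windows in the first were under 70% in 5M-GS, and 6.70% to 7.29% in the other 4.

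Start sites inside the bodies, whose sequences stand above, were compared in the 250 bases upstream of each. The RefSeq promoter entries used held none on chromosome 18. Its 50 long genes, with those of the protocadherin block, were therefore not in this comparison. Of 423 start sites inside the bodies, 270 in 204 genes held at least 4 usable CpGs. In most of them the sequence was unmethylated, with 175 under 10% in 60M-GS, against 182 in 5M-GS, 173 of them in both. By Fisher's exact test over 18799 promoters, with a minimum difference of 20 points, 9 (3.33%) were higher in 60M-GS and 4 (1.48%) lower, against backgrounds of 3.9% higher and 0.692% lower. This comparison was added after the window values had been seen.

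The largest gain was in Celf2, an RNA-binding splicing regulator, 675 kb into the gene, where 83.3% of 90 calls were methylated in 60M-GS cells and 0 of 169 in 5M-GS cells, which allows a level of up to 1.78%. The CpG-rich start of the same gene printed last is the unmethylated one. In Ctnna3, an alpha-catenin gene at a fragile site, the level was 88.4% in 60M-GS, against 27.4% in 5M-GS. In Lingo2, a leucine-rich repeat membrane protein gene, it was 87.5% in 60M-GS cells and 27.7% in 5M-GS cells, 1107 kb into the gene, and in Mgat4c, a glycosyltransferase gene, 40.4% in 60M-GS, against 7.14% in 5M-GS. The other gains were in the polarity gene Pard3, in Etl4, in the neuronal transcription factor gene Myt1l, in Pld5, of the phospholipase D family, and in the phosphatase and actin regulator gene Phactr1, by 20.7 to 30.1 points.

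The losses were in Crb1, a polarity gene of the retina, at 40.8% in 60M-GS, against 80% in 5M-GS, in the exchange factor gene Kalrn, on chromosome 16, at 22.8% in 60M-GS, against 54.8% in 5M-GS, in Ripor2 at 43.4% in 60M-GS, against 67.5% in 5M-GS, and in the zinc finger gene Zfp385b at 63.0% in 60M-GS, against 85.6% in 5M-GS. With 4 to 11 CpGs and 65 to 359 calls each, these levels are much less precise than those of whole bodies: the interval of the difference was -52.2 to -23.3 points in Crb1 and 74.04 to 89.6 points in Celf2.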

How the data were processed

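Whole-genome bisulfite libraries of 2 replicates per age were made by PBAT, in which adaptors are added once the DNA has been bisulfite-treated (per the labels' protocols). The submitters' processing notes name Bismark 0.10.0 and mm10. The deposited tables, 1 per age with both replicates pooled, give per CpG the count of methylated and the count of unmethylated calls, without normalization, and the authors' percent of methylated calls, which was not used. For filters and deduplication, the step was not given in the sources used here. Only CpGs with 5 to 74 calls in both tables were used, and a level is the summed methylated calls over all calls.

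Bodies and windows needed 20 CpGs. Gene spans came from RefSeq (GRCm38.p6) and strands and sequences from its promoter table, which covered 706 of the measured genes, none of them on chromosome 18. Tests were two-sided Fisher's exact tests, adjusted by Benjamini-Hochberg over all bodies, windows or promoters and tested on simulated data. Intervals are 95% Wilson and Newcombe intervals; calls on 1 read are not independent. Python 3.11.15 with numpy 2.4.6, scipy 1.17.1, pandas 2.3.3 and numba 0.67.0 was used. The members and gene lists were chosen with earlier results of these data known. Genes were named by rule: the 5 longest, the 10 largest gains, the 10 largest losses, the 10 lowest, the 10 with the most low windows, the 5 steepest rises and the 5 steepest falls, and up to 4 per list. Genes with predicted names were counted only, and a few results under this rule were left out here. No genome sequence was used, so bodies are described without sequence.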

Additional observations from a re-analysis of the deposited data

How the results depend on the processing

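The 11 higher bodies numbered 11 with at least 10 calls per CpG, with the mean of per-CpG percents, with each CpG counted once and without chromosomes 15 and 16, 14 with no maximum of calls and 13 with 20 kb left out at each end. There were 23 with a minimum difference of 5 points, 3 with 20 points, 3 among genes of 300 kb or more, 1 without CpG-dense CpGs and 1 without the Pcdha block. Lower bodies numbered 0 under every one of these. The median level in 60M-GS and in 5M-GS was 83.85% and 83.5% with 10 calls, 83.66% and 83.37% with no maximum, 83.35% and 83.1% as a mean of percents, and 84.4% and 84.2% with 20 kb left out. The share of low windows and their median difference were 2.33% and 2.41 points under 60%, 13.4% and 1.26 under 75%, 8.70% and 1.72 in 10 kb windows, 4.84% and 1.38 in 50 kb windows, 8.12% and 2.17 in windows laid from the start of the span, and 7.48% and 1.71 with CpGs of odd rank choosing. Higher and lower windows numbered 508 and 16 with 10 calls, 447 and 13 without chromosomes 15 and 16, 477 and 14 without the Pcdha block, and 89 and 2 with each CpG counted once. The median gradient in 5M-GS, 2.00 points over all 926 oriented genes, was 1.38 to 2.42 under the alternatives. Of 160 gene differences, recomputed for 32 genes under the 5 settings that can alter them, 0 changed sign. By the 10-point call, 148 were the same, 10 were no longer called and 2 were newly called. These 32 genes had been picked for the largest gains and losses in the same tables, so a change of sign was unlikely from the start. The sign says nothing of size, and some gains were much smaller without CpG-dense CpGs. The last 3 window settings, the Pcdha and RefSeq strand alternatives and the odd-rank split by make-up were chosen after seeing the data. No paired analysis was possible because each table pools its replicates, and for the same reason none could be left out. Depth limits the short promoter sequences and members such as Skint6 most.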
